A study of Mus musculus with 6 samples.

Results

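The innate sensors and their adaptors were 25 of the 750 genes counted in CD4 T cells of mouse liver. They were chosen by gene symbol alone: Toll-like receptors, NOD-like receptors, C-type lectins, cytosolic DNA sensors, pyrin and the accessory proteins of lipopolysaccharide sensing made up 15 sensors, and the adaptors and proximal kinases made up the other 10. RNA was measured with the nCounter assay, in which probes carrying a colour code bind their RNA and are counted 1 by 1, with no amplification step. The MASH group held 3 libraries labelled FFC and the control group 3 labelled Chow, which the series calls biological replicates. In this field MASH usually stands for metabolic dysfunction-associated steatohepatitis, FFC for feed rich in fat, fructose and cholesterol, and Chow for standard feed, although the labels do not spell these out. Strain, sex, age, length of feeding and how the cells were isolated are not stated in the labels.

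Innate sensors bind molecules of microbes or of damaged cells. Toll-like receptors signal from the cell surface or from endosomes through adaptors with a TIR domain, chiefly MyD88 and TRIF. MyD88 recruits the IRAK kinases, and TRIF and STING lead to the kinases TBK1 and IKK-epsilon. NOD-like receptors and DNA sensors act in the cytosol, and some of them assemble inflammasomes through the adaptor ASC. Macrophages, dendritic cells and neutrophils carry most of these sensors. T cells use MyD88 and the IRAK kinases also behind receptors of the interleukin-1 family.

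Each deposited value was the log2 of a whole-number count after multiplication by a factor of its library, and the counts were recovered from them. The recovered counts over all genes summed to between 623212 and 693640 in MASH and between 726836 and 900322 in control. The factors lay between 1.11 and 1.26 in MASH and between 0.707 and 1.10 in control, so equal counts in every library gave higher deposited values in MASH. The median log2 difference over the 748 tested genes was 0.43, and differences are also given after centring the libraries on their medians, which removes nearly all of this shift (0.04 left). The counts of 5 T cell markers summed to 12053, 12522 and 12137 in MASH libraries 1 to 3 and to 14834, 13990 and 8751 in control libraries 1 to 3. Of these 5, Cd3g and Cd4 rose in MASH (0.91 and 0.79, adjusted p = 0.043 and 0.044) and Cd3d, Cd3e and Cd5 did not pass, and after centring none of the 5 passed. Of 9 macrophage and monocyte markers 6 passed as higher in MASH, where 17.4% of all tested genes did. Under quantile normalization 5 of the 9 passed, against 4.01% of all genes. The counts of the 9 summed to 4898, 6298 and 2808 in MASH libraries 1 to 3 and to 1725, 1921 and 2455 in control libraries 1 to 3. None of the 9 was at 0 in any library. Of 4 dendritic cell markers 2 passed as higher in MASH, and 0 under quantile normalization. In such a preparation more cells of a type and more RNA per cell cannot be told apart. On the deposited scale replicate 3 of each group lay nearest the other group for most members. MASH 3 was the lowest MASH library for 20 of the 25 members and control 3 the highest control library for all 25. After centring this held for 11 and 14 members. MASH 3 had the lowest factor of the MASH libraries and control 3 the highest of the control libraries.

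Of the 15 sensors 5 rose in MASH and none fell, and of the 10 adaptors 1 rose and none fell. They were Tlr5, Tlr9, Lbp, Nlrp3, Mefv and the adaptor gene Tirap. These 6 of 25 stand against 17.4% of all tested genes called higher and 0.936% called lower (limma's moderated test, Benjamini-Hochberg adjusted p of 0.05 over 748 genes). At an unadjusted p under 0.05, 14 members were higher and 0 lower, against 34.9% and 2.14% of all genes. After centring the same 5 sensors passed and Tirap did not, against 14.4% of all genes called higher and 4.81% called lower. Under quantile normalization and under cyclic loess 0 members passed, against 4.01% and 4.68% of all genes called higher, and at an unadjusted p under 0.05 in limma 5 were higher and 1 lower in each, against 13% and 13% of all genes under quantile normalization and 14.3% and 11.6% under cyclic loess. Leaving out MASH 3 gave 13 members (30.6% of all genes called higher) and leaving out control 3 gave 15 (38% of all genes), while 0 members passed when any one of the other libraries was left out, where 0.134% to 0.936% of all genes passed as higher. At an unadjusted p under 0.05, 8 to 10 members were higher in those 4 fits, against 22.7% to 26.1% of all genes. With both of these libraries left out, 20 passed, against 61.5% of all genes called higher. The median log2 difference was 0.86 over the sensors, 0.34 over the adaptors and 0.43 over all tested genes, or 0.48, -0.04 and 0.04 after centring.

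**Figure D1:**
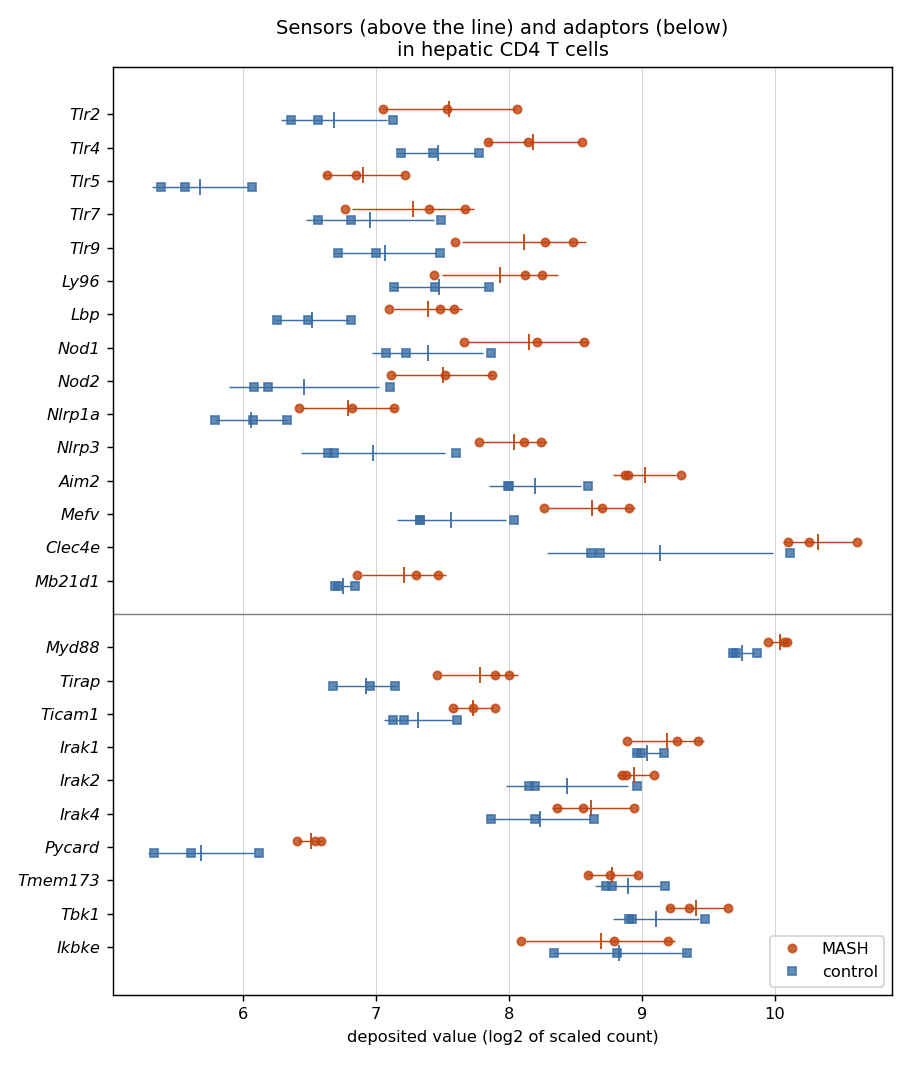
Deposited values (log2 of scaled counts, horizontal axis) of 15 sensors and 10 adaptors in 3 MASH and 3 control libraries. Points are libraries and bars are the mean and SD of each group. The groups did not overlap for 10 sensors and 3 adaptors, all higher in MASH, where 34.4% of all tested genes were apart and higher, and the highest control point of every gene is control 3.

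Many members had low counts. In each library a background level was taken from 10 genes known mainly from other organs, among them the thyroid hormone precursor gene Tg. Those genes averaged 118.5, 140.4 and 108.5 counts in MASH libraries 1 to 3 and 86.7, 83.1 and 89.3 in control libraries 1 to 3. Of these 10 genes 6 rose in MASH, and their median log2 difference was 0.98. A floor of their mean plus 2 SD lay at 213.7 to 256.4 counts in MASH and at 162.8 to 168.1 in control. Above the floor in all 6 libraries were 3 sensors, Aim2, Mefv and Clec4e, and 7 adaptors, while 7 sensors and 1 adaptor lay under it in every library. With a mean count up to 100, 1 of 3 members was called higher, against 32.1% of the 84 genes at that level. Between 100 and 200 counts 4 of 9 members were called, against 31.9% of 144 genes. Between 200 and 500 counts it was 1 of 9 members against 13.9% of 208 genes, and between 500 and 1000 counts 0 of 4 members against 9.35% of 139 genes. How far background counts contribute to the calls was not tested.

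**Figure D2:**
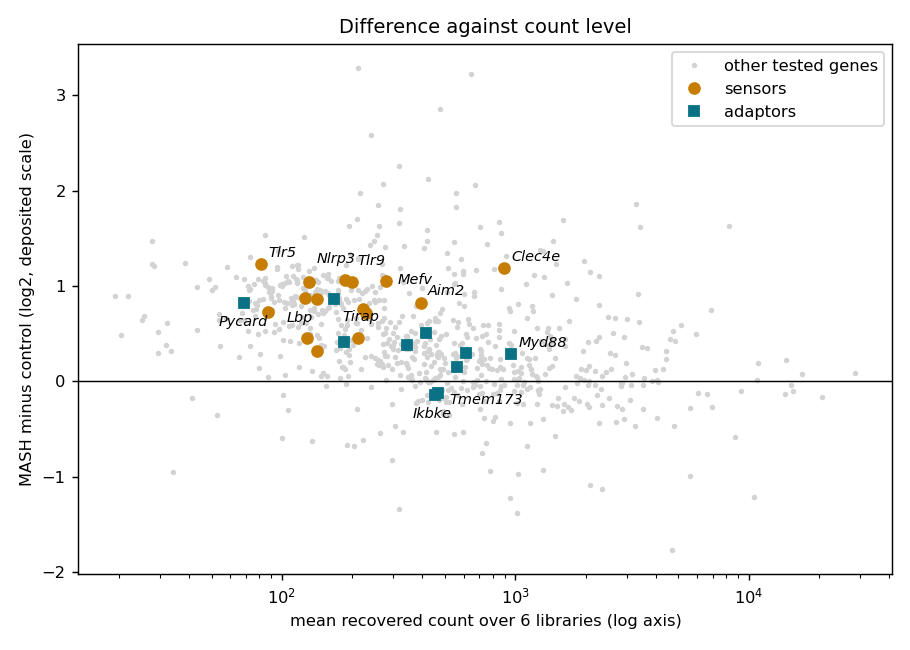
Log2 difference, MASH minus control on the deposited scale (vertical axis), against the mean recovered count over 6 libraries (horizontal log axis) for 748 tested genes. The sensors lie mostly at 70 to 300 counts, with differences from 0.32 to 1.23. Over all tested genes the median difference was 0.83 up to 100 counts, 0.80 between 100 and 200 and 0.41 between 200 and 500. Most adaptors lie at higher counts and smaller differences, and Clec4e stands apart from the other sensors in its count.

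The Toll-like receptors were all under or near the background floor. Tlr5, the receptor of bacterial flagellin, had 98, 118 and 89 counts in MASH, against 54, 67 and 61 in control. The groups did not overlap, and Tlr5 rose by 1.23 ± 0.27 (log2, SE; adjusted p = 0.030; 0.84 after centring, 0.40 under quantile normalization with adjusted p = 0.11). In all 6 libraries Tlr5 lay below the mean of the genes of other organs. Tlr9, the endosomal receptor of unmethylated CpG DNA, had 262, 282 and 173 counts in MASH and 136, 181 and 162 in control. Its counts overlapped, since MASH 3 lay under control 2, whereas the deposited values did not. Tlr9 rose by 1.05 ± 0.31 (adjusted p = 0.048; 0.66 after centring, 0.37 under quantile normalization with adjusted p = 0.20). B cells also express Tlr9, and the counts of 7 B cell markers summed to 1350 to 1499 in MASH, below the 1828 to 2824 in control.

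Tlr2, which senses bacterial lipoproteins, had 157, 211 and 119 counts in MASH and 122, 116 and 127 in control, with MASH 3 among the control values. It differed by 0.86 ± 0.32 (adjusted p = 0.087). Tlr4, the receptor of lipopolysaccharide, had 240, 296 and 206 counts in MASH and 188, 243 and 199 in control, and differed by 0.72 ± 0.27 (adjusted p = 0.088). After centring the differences of Tlr2 and Tlr4 were 0.48 and 0.33. Tlr7, the endosomal receptor of single-stranded RNA, had 143, 161 and 98 counts in MASH and 122, 159 and 163 in control. The Tlr7 groups overlapped fully, with a difference of 0.32 ± 0.33 (adjusted p = 0.50) that turned to -0.06 after centring.

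Lbp and Ly96 are accessory genes of lipopolysaccharide sensing. Lbp encodes a plasma protein, made chiefly by hepatocytes, that hands lipopolysaccharide to its receptor. It had 152, 152 and 123 counts in MASH and 116, 108 and 102 in control. The groups were apart and Lbp rose by 0.87 ± 0.25 (adjusted p = 0.044; 0.48 after centring and 0.10 under quantile normalization, adjusted p = 0.65). Of 8 other genes of hepatocytes, a list added after the values were seen, 0 passed in limma or voom. Of all tested genes 17.4% and 25.5% were called higher. At an unadjusted p under 0.05, 2 of the 8 were higher in each, against 34.9% and 33.2% of all genes. Their median was 0.54, and 5 of the 8 lay under the background floor in every library. With MASH 3 and control 3 left out all 8 passed, against 61.5% of all genes. The part of hepatocytes in the Lbp counts was not tested. Ly96, which encodes the MD-2 subunit of the Tlr4 complex, averaged 212.3 counts in both groups and differed by 0.46 ± 0.30 (adjusted p = 0.29).

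Among the inflammasome sensors the groups were apart for all 4 on the deposited scale, where 34.4% of all tested genes were apart and higher in MASH. Nlrp3 responds to many signs of cell damage. It had 235, 239 and 196 counts in MASH, against 133, 141 and 176 in control. Every MASH count lay above every control count, and Nlrp3 rose by 1.07 ± 0.30 (adjusted p = 0.045; 0.68 after centring, 0.40 under quantile normalization with adjusted p = 0.14). Mefv, the pyrin gene, had 353, 379 and 276 counts in MASH and 208, 227 and 239 in control. Mefv was the only one of the 6 genes called that exceeded the background floor in all 6 libraries. It rose by 1.06 ± 0.28 (adjusted p = 0.043; 0.67 after centring, and 0.53 under quantile normalization with adjusted p = 0.058). Macrophages and neutrophils use both genes. Of 6 neutrophil markers 4 passed as higher, where 17.4% of all genes did, and 1 passed under quantile normalization; their counts summed to 1031, 1240 and 888 in MASH and to 661, 784 and 905 in control, and 3 of the 6 lay under the floor in all libraries. The part of these cells in the result was not tested.

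Aim2, a sensor of cytosolic DNA, had 403, 497 and 420 counts in MASH and 331, 359 and 350 in control. These counts were apart and above the floor in every library, and the difference was 0.83 ± 0.26 (adjusted p = 0.055). It was 0.44 both after centring and under quantile normalization, without passing (adjusted p = 0.064 and 0.094). Nlrp1a differed by 0.73 ± 0.26 (adjusted p = 0.080) and lay below the mean of the genes of other organs in 5 of 6 libraries. Nod2, the sensor of muramyl dipeptide, had 156, 185 and 124 counts in MASH and 94, 96 and 125 in control. MASH 3 and control 3 nearly coincided, and Nod2 differed by 1.04 ± 0.33 (adjusted p = 0.057). Nod1, which senses another peptidoglycan fragment, had 252, 300 and 182 counts in MASH and 174, 212 and 211 in control and differed by 0.76 ± 0.31 (adjusted p = 0.11). MASH 3 again fell among the control counts.

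Clec4e, which encodes the C-type lectin Mincle of macrophages and other myeloid cells, was the sensor counted furthest above the floor. It had 1038, 1241 and 984 counts in MASH, against 506, 580 and 1005 in control. Control 1 and 2 had lower counts than every MASH library, while control 3 reached the MASH level. The difference of 1.19 ± 0.40 did not pass (adjusted p = 0.069), and it passed without control 3. It was 0.80 after centring and 0.92 under quantile normalization. Mb21d1, the gene of the cytosolic DNA sensor cGAS, had 150, 125 and 104 counts in MASH and 136, 146 and 104 in control, with a difference of 0.46 ± 0.23 (adjusted p = 0.19; -0.32 under quantile normalization).

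**Figure D3:**
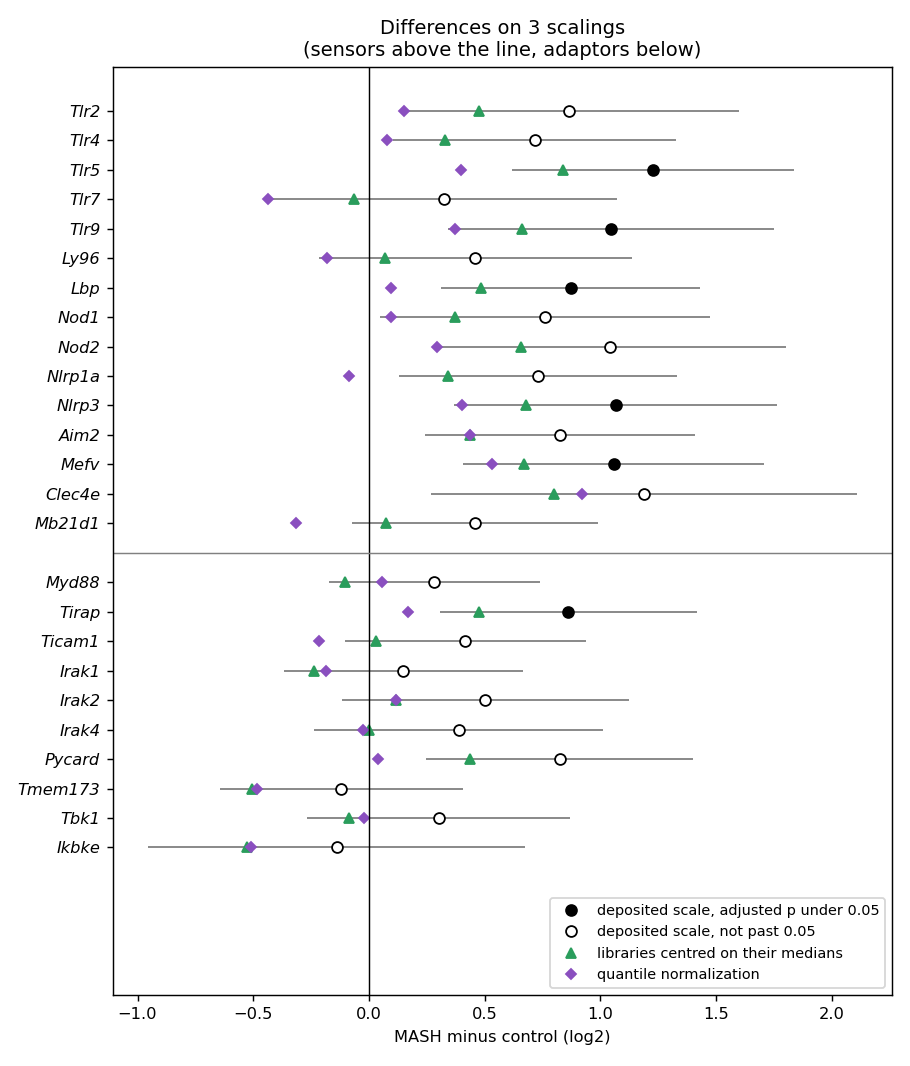
Log2 difference, MASH minus control (horizontal axis), for each member, with limma's 95% interval on the deposited scale (circles, filled where the adjusted p is under 0.05) and the values after centring (triangles) and under quantile normalization (diamonds). Of the 15 sensors, 14 stay above 0 after centring, as do 5 of the 10 adaptors and 52.9% of all tested genes; diamonds of all 6 filled genes lie under 0.6.

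Of the 10 adaptors 7 lay above the background floor in every library, with differences between -0.14 and 0.50, and Tirap, Ticam1 and Pycard did not. Myd88, the adaptor of most Toll-like receptors and of the interleukin-1 receptor family, had 840, 861 and 964 counts in MASH and 1082, 1162 and 847 in control. On the deposited scale it stood at 10.04 ± 0.07 in MASH and 9.75 ± 0.10 in control (SD, n = 3 each), and the 95% interval of the difference ran from -0.17 to 0.74 (adjusted p = 0.33). The difference of 0.28 became -0.10 after centring. Tirap bridges Tlr2 and Tlr4 to MyD88. It had 217, 188 and 158 counts in MASH and 132, 175 and 128 in control and was the 1 adaptor gene that rose, by 0.86 ± 0.24 (adjusted p = 0.044; 0.47 after centring with adjusted p = 0.067; 0.17 under quantile normalization with adjusted p = 0.57). Tirap exceeded the floor in 1 of 6 libraries. Ticam1, the TRIF gene, had 162, 188 and 190 counts in MASH and 181, 209 and 177 in control and differed by 0.42 ± 0.23 (adjusted p = 0.22).

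The IRAK kinase genes did not pass. Irak4, the kinase that starts signalling from MyD88, had 319, 388 and 295 counts in MASH and 378, 329 and 361 in control. Its difference of 0.39 ± 0.27 (adjusted p = 0.33) came to about 0 after centring. Irak1 had 522, 541 and 424 counts in MASH and 644, 719 and 522 in control, and differed by 0.15 ± 0.23 (adjusted p = 0.67; -0.24 after centring). Irak2 differed by 0.50 ± 0.27 (adjusted p = 0.21). Pycard, the gene of the inflammasome adaptor ASC, had 79, 76 and 76 counts in MASH and 63, 57 and 63 in control. The groups were apart, with a difference of 0.82 ± 0.25 (adjusted p = 0.054), but all 6 counts lay below the mean of the genes of other organs and the difference was 0.04 under quantile normalization.

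The adaptor and the kinases of the STING pathway included the 2 members with a negative difference. Tmem173, the STING gene, had 328, 342 and 450 counts in MASH, against 566, 599 and 525 in control. The counts were apart and lower in MASH, as for 22.1% of all tested genes, while the deposited values overlapped. The difference was -0.12 ± 0.23 (adjusted p = 0.75) on the deposited scale and -0.51 after centring (adjusted p = 0.11). Ikbke, the gene of IKK-epsilon, differed by -0.14 ± 0.36 (adjusted p = 0.81), with 376, 463 and 244 counts in MASH and 582, 457 and 587 in control. It turned to 0.42 with MASH 3 and control 3 left out (adjusted p = 0.13). Tbk1 had 556, 633 and 531 counts in MASH and 629, 677 and 646 in control and differed by 0.30 ± 0.25 (adjusted p = 0.41; -0.09 after centring).

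A ratio of sensors to adaptors within a library does not depend on the scale factor. The counts of the 15 sensors summed to 3882, 4537 and 3421 in MASH libraries 1 to 3 and to 2589, 2959 and 3306 in control libraries 1 to 3. Those of the 10 adaptors summed to 3791, 4111 and 3754 in MASH and to 4636, 4785 and 4309 in control. The ratio of the sums was 1.02, 1.10 and 0.911 in MASH and 0.558, 0.618 and 0.767 in control. The groups did not overlap in either sum or in the ratio. Sums of the 10 genes of other organs were also apart, at 1185, 1404 and 1085 in MASH and 867, 831 and 893 in control. Their ratio to the adaptor sums was thus also higher in every MASH library than in every control library. A higher ratio was therefore not particular to the sensors. Like the adaptor sums, counts summed over all tested genes were lower in every MASH library than in every control library. They came to 689391, 693620 and 623172 in MASH and to 820967, 900294 and 726803 in control. On the deposited scale the difference was above 0 for 8 of the 10 adaptors and for 80.5% of all tested genes. Clec4e supplied a large part of the sensor counts, and without it the ratio was 0.750, 0.802 and 0.649 in MASH and 0.449, 0.497 and 0.534 in control. Over the 3 sensors and 7 adaptors above the background floor in every library, the ratio was 0.538, 0.579 and 0.505 in MASH and 0.245, 0.268 and 0.404 in control. By mean count 12 sensors were higher in MASH, 2 were lower and 1 was equal, and 3 adaptors were higher and 7 lower, where 53.2% of all tested genes had a lower mean count in MASH. The sensor sums put the 6 libraries in the same order as the sums of the macrophage and monocyte markers, from MASH 2 down to control 1. That order was not particular to these markers. Sums of the genes of other organs differed from it only in control 1 lying above control 2. Neutrophil marker sums differed only in control 3 lying above MASH 3. Sums of the T cell, dendritic cell and B cell markers and of the hepatocyte genes ran in other orders. The part of macrophages, monocytes and neutrophils in the ratio was not tested.

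**Figure D4:**
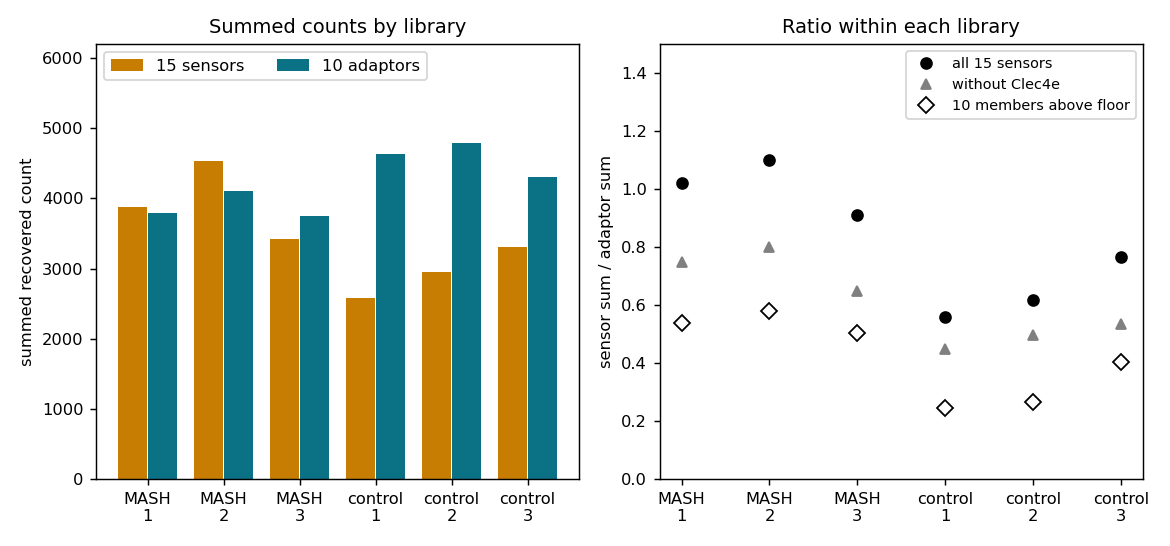
Summed recovered counts of 15 sensors and 10 adaptors in each library (left, bars from 0) and the ratio of the 2 sums within each library (right), also without Clec4e and over the 10 members above the background floor in all libraries. Every MASH ratio lies above every control ratio in each of the 3 versions, and control 3 is the nearest control library.

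Other genes of these pathways were taken from lists of textbook knowledge. Of 26 tested signalling genes 1 rose and none fell, where 17.4% of all genes were called higher. It was Card9, an adaptor behind C-type lectins, at 1.31 ± 0.33 (adjusted p = 0.039; 0.92 after centring), and it lay under the floor in all libraries. The median of these 26 was 0.25, or -0.14 after centring. Casp1, the protease that inflammasomes activate, differed by 1.13 ± 0.39 (adjusted p = 0.071). Its counts were 730, 1013 and 460 in MASH and 343, 527 and 495 in control. Traf6, the ubiquitin ligase downstream of the IRAK kinases, differed by -0.24 ± 0.22 (adjusted p = 0.47).

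Of 3 tested cytokine receptor genes that use MyD88, Il18rap rose, with 195, 307 and 557 counts in MASH and 148, 134 and 189 in control (1.54 ± 0.42, adjusted p = 0.043; 1.15 after centring with adjusted p = 0.086). It encodes a chain of the interleukin-18 receptor, which T and NK cells carry, and MASH 3 was its highest library. Its partner chain Il18r1 differed by 1.17 ± 0.58 (adjusted p = 0.18), also highest in MASH 3. Of 15 tested target genes 4 rose and none fell, namely Ptgs2, Nos2, Il12b and Ifnb1, or Nos2 and Ifnb1 after centring, where 17.4% and 14.4% of all genes were called higher. Under quantile normalization Card9, Il18rap and these 4 did not pass. Nos2, the inducible nitric oxide synthase gene, had 530, 712 and 737 counts in MASH and 352, 310 and 429 in control (1.34 ± 0.32, adjusted p = 0.033). Ptgs2, the inducible cyclooxygenase gene, had 1601, 1700 and 3371 counts in MASH and 709, 682 and 1543 in control (1.69 ± 0.49, adjusted p = 0.047). Il12b and Ifnb1 differed by 0.87 and 1.05 and lay under the floor in every library. Il1b, whose product inflammasomes process, differed by 1.09 ± 0.54 (adjusted p = 0.18), with control 3 above both MASH 1 and MASH 2.

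Promoters of the members were searched for 3 motifs on both strands, in the 250 bases before and 50 after each start in RefSeq (GRCm38.p6), where 20 of the 25 members had an entry. The PU.1 core GAGGAAGT, bound by a regulator of myeloid and B cells, was present for Aim2, Nlrp1a, Pycard and Tlr9, or 4 of 20 members, and for 3.69% of the 27025 genes. The interferon-stimulated response element GAAANNGAAA was present for Myd88 and for 3.99% of genes, and the NF-kB consensus for Irak1, Nlrp3 and Tlr2 and for 9.55%. The motifs were chosen after the values were seen, and a match is a description and not a bound site. Their shares among the other counted genes were not determined, so these percentages do not set the members apart from those genes. No member held more than 1 of the 3. The stretches around 4 of the matches are shown because they belong to an inflammasome sensor that rose, its adaptor, the adaptor with the highest counts and a kinase it recruits. Each reads 5′ to 3′ on the strand of the gene, ends before the start, and has the motif in capitals. They lie at chr11:59541353-59541422 (plus strand), chr7:127993874-127993941, chr9:119340019-119340088 and chrX:74023922-74023969 (minus strand).
Nlrp3: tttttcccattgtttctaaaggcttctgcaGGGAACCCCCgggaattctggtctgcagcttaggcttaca
Pycard: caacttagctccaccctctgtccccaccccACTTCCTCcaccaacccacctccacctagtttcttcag
Myd88: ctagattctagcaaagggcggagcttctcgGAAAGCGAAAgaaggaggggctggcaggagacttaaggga
Irak1: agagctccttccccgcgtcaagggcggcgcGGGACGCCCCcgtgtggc
In Nlrp3 the NF-kB consensus began 186 bases before the start and in Irak1 18 bases before it. In Pycard the PU.1 core lay on the opposite strand, 44 to 37 bases before the start, and in Myd88 the response element began 40 bases before it. Spi1, the gene of PU.1, had 455, 537 and 261 counts in MASH and 245, 346 and 402 in control, which overlapped (0.79 ± 0.40, adjusted p = 0.19).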

How the data were processed

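Total RNA of liver CD4 T cells was isolated with a Direct-zol MicroPrep column kit, per the labels' protocols, and counted by nCounter, per the series title. A table of 750 genes and 6 libraries was deposited by the authors as log2 values, with a normalization that the labels do not state. Dividing 2 to the power of each value by 1 step per library gave whole numbers for 100% of values (within 0.02), taken as the counts. Groups came from the sample titles.

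Genes with a linear mean of at least 20 (748 of 750) entered limma 3.58.1 in R 4.3.3 (lmFit, eBayes, two-sided, Benjamini-Hochberg over all genes, threshold 0.05), both groups in 1 fit without covariates. All 25 members passed this filter. The fit was tested on simulated data with independent noise and no shift between libraries. That test therefore does not bear on how the calls depend on scaling or on single libraries. With 3 libraries per group, precision was limited.

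Members and lists were chosen with earlier results of these data known; the genes of other organs and of hepatocytes, the floor built on the former, the promoter motifs, and Casp1, Traf6, Il18r1, Il1b and Spi1 were chosen after the values were seen. Every member is named. Per-library values go to members past the threshold, those apart by a log2 difference of at least 1, the 3 with the highest counts per class and 13 set genes, of which Tlr3 and Mavs were not analysed here. Pycard, Tmem173, Ikbke and Mb21d1 are given beyond that rule.

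Symbols matched RefSeq GRCm38.p6, 23 as current symbols and 2 as synonyms. Probe sequences were not used here, so cross-hybridisation of related genes was not checked. The sample titles do not say whether equal replicate numbers pair the libraries. Correlations of deviations between libraries of equal number were 0.019, -0.22 and -0.04. With 3 libraries per group these cannot settle whether the libraries were paired. Alternatives were other scalings, filters, a pseudocount of 10, the floor, voom, trend and robust eBayes, the replicate number as a block and each library left out; leaving out MASH 3 and control 3 was added after the data were seen.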

Additional observations from a re-analysis of the deposited data

How the results depend on the processing

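The count of members called higher in MASH was 6. It was 5 after centring and with a pseudocount of 10, and 6 with no filter or a mean of at least 50. It was 0 under quantile normalization, cyclic loess and the replicate block, 2 with trend and robust eBayes (13.9% of all genes called higher), 12 with voom on recovered counts (25.5%), 18 with the background floor (42.5%) and 20 with replicate 3 of both groups left out (61.5%). With the floor, which was higher in MASH in counts and after scaling, genes under it in all libraries take the floor's own difference by construction, as Tlr5 did at 0.96 in place of 1.23. With the replicate number as a block, 1 gene of 748 passed as higher and 0 lower. Leaving out 1 library in turn gave 0 to 15 members. In every one of these fits 0 members were called lower. At an unadjusted p under 0.05 in limma, 16 genes of 748 were lower on the deposited scale, none of them a member. At that threshold 1 member was lower in each of the centred, quantile and cyclic loess fits, against 15.1%, 13% and 11.6% of all genes. None of the 6 genes called passed in all 5 scalings (deposited, centred, quantile, cyclic loess and voom).

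Signs turned for members that had not passed, and the causes were not tested. After centring the log2 difference was -0.24 for Irak1, -0.10 for Myd88, -0.086 for Tbk1 and -0.063 for Tlr7. Under quantile normalization it was -0.18 for Irak1, -0.026 for Irak4, -0.18 for Ly96, -0.32 for Mb21d1, -0.088 for Nlrp1a, -0.023 for Tbk1, -0.21 for Ticam1 and -0.43 for Tlr7. Under cyclic loess it was -0.089 for Irak1, -0.012 for Irak4, -0.16 for Ly96, -0.32 for Mb21d1, -0.076 for Nlrp1a, -0.25 for Ticam1 and -0.43 for Tlr7, and with voom -0.055 for Irak1. Ikbke stood at 0.11 without control 3, 0.16 without MASH 3 and 0.42 without both, with a range of -0.39 to 0.16 over the fits without 1 library. Tmem173 stood at 0.022 without control 3, the highest value in its range from -0.22. In all libraries 7 sensors and 1 adaptor lay under the background floor, so their differences rest on counts in the range of genes of other organs.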
